A study of Rattus norvegicus with 4 samples.

Results

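Collagens, laminins and integrins were followed in the maturing rat retina as 36 genes, each measured by 1 or more of 62 array probes. The set was made of probes whose platform gene symbol begins with Col and a digit, with Lama, Lamb or Lamc and a digit, or with Itga or Itgb and a letter or digit. Binding proteins with 3 such symbols (Itgb1bp1, Itgb1bp2 and Itgb3bp) were left out. The set holds 15 collagen genes (21 probes), 5 laminin genes (17 probes) and 16 integrin genes (24 probes), out of 9653 genes and 22575 probes in all. The integrin group includes Itgbl1, an integrin beta-like gene that met the symbol rule. Other members of these families, Col1a1, Col4a1 and Col4a2 among them, were not analysed here. The study compared whole retinas of albino Lewis rats at 5, 11 and 20 weeks of age on 4 two-colour arrays. All animals were reared from birth in a day-night cycle under standard laboratory conditions, and neither their sex nor the number pooled is given in the sources used here. Retinas were pooled before RNA extraction, and 2 arrays set 11-week against 5-week retina and 2 set 20-week against 5-week retina, each pair with the dyes Cy5 and Cy3 exchanged.

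Collagens are triple-helical proteins that form fibrils, sheet-like networks or membrane anchors. Collagen IV networks and laminin trimers are the scaffold of basement membranes, which in the eye include the inner limiting membrane between retina and vitreous, Bruch's membrane under the pigment epithelium, and the sheaths of retinal vessels. Integrins are receptors of paired alpha and beta chains that hold cells to these matrices, and some of them serve leukocytes. Whole retina holds neurons, glia, vessels and microglia together, so fewer cells of a type and less RNA per cell cannot be told apart in any value below.

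Each value is a log2 ratio of older over 5-week retina, relative to the median of named probes on that array, with the probes of a gene averaged. A pair of values is given with the array that carried the older retina in Cy5 first and the one that carried it in Cy3 second. Ratios were read as Cy5 over Cy3, a direction that is likely from the order of ages in the sample titles but is not stated; were it the reverse, every higher and lower below would exchange. The array medians as deposited were between -0.14 and 0.55. Ratios carry no level, so the labelled tissue could not be checked against the amount of its markers, and the array number limits the precision. Across 12750 named probes, the 2 arrays at 11 weeks correlated at -0.328 once turned to the same age, and the 2 at 20 weeks at 0.145. Arrays of different ages that shared a dye orientation correlated at 0.577 and 0.685, and those of opposite orientation at -0.101 and -0.377. Every array had the 5-week age in its other channel. A gene "passed" when limma's test, with a gene-wise dye effect in the model, gave a Benjamini-Hochberg adjusted p under 0.05 over all 9653 genes. In the model without the dye effect 0 genes of the whole array passed in any comparison. Unadjusted p was under 0.05 for 1, 6 and 2 of the 36 genes at 11 against 5, 20 against 5 and 20 against 11 weeks. Over all 9653 genes, 0 of which passed, these counts were 367, 888 and 270. Every pass below thus rests on a dye effect that is taken, for each gene, as equal across the arrays. On simulated data made with equal dye effects, the fit called more unchanged genes than its threshold allows. The p-values rest on how far the dye difference of a gene differs between the 2 ages. They do not measure the SD printed beside a change. Separate RNA for the arrays of a pair is not stated in the labels, and with shared extracts there would be 1 pool per age and no replicate. Each array is a slide of its own, so the spread between the 2 arrays of an age includes that between slides.

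At 11 weeks 1 of the 36 genes passed. Col17a1, a transmembrane collagen of hemidesmosomes, rose, and 0 genes fell, where 2.61% of all genes rose and 6.34% fell (8.95% in all). Col17a1 stood at 0.51 and 0.42 on the 11-week arrays, 0.47 ± 0.06 (SD, n = 2), or 1.38-fold above 5 weeks (adjusted p = 0.00511). The change was above 0 for 30 genes and below 0 for 6 (5300 and 4353 of all 9653 genes), with a median of 0.08 against 0.02 for all genes. Both arrays were above 0 for 12 of the 36 genes (20.5% of all genes) and below 0 for 0 (20.2% of all genes). Among these 12, Itga11 (0.27 and 0.14) and Itgad (0.31 and 0.10) had the next largest mean changes after Col17a1, with adjusted p of 0.0851 and 0.0800.

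At 20 weeks 10 genes rose and 3 fell, where 17.8% of all genes rose and 13.9% fell. The share of the 36 that passed in either direction, 36.1%, was near the 31.7% of all genes. The median change was 0.11 against 0.01 for all genes, and both arrays were above 0 for 15 genes (27.1% of all genes) and below 0 for 4 (26.7%). By family, 5 collagens rose and 3 fell (53.3% passed), 5 integrins rose and 0 fell (31.2% passed), and 0 of 5 laminins passed. The integrin share was near the 31.7% of all genes, and 5 laminins are too few to set against it. These family counts are descriptions, and the differences between families were not tested. The fibrillar collagens Col5a1 and Col2a1 had the highest values, and the basement membrane collagens Col15a1 and Col4a3 the lowest.

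**Figure D1:**
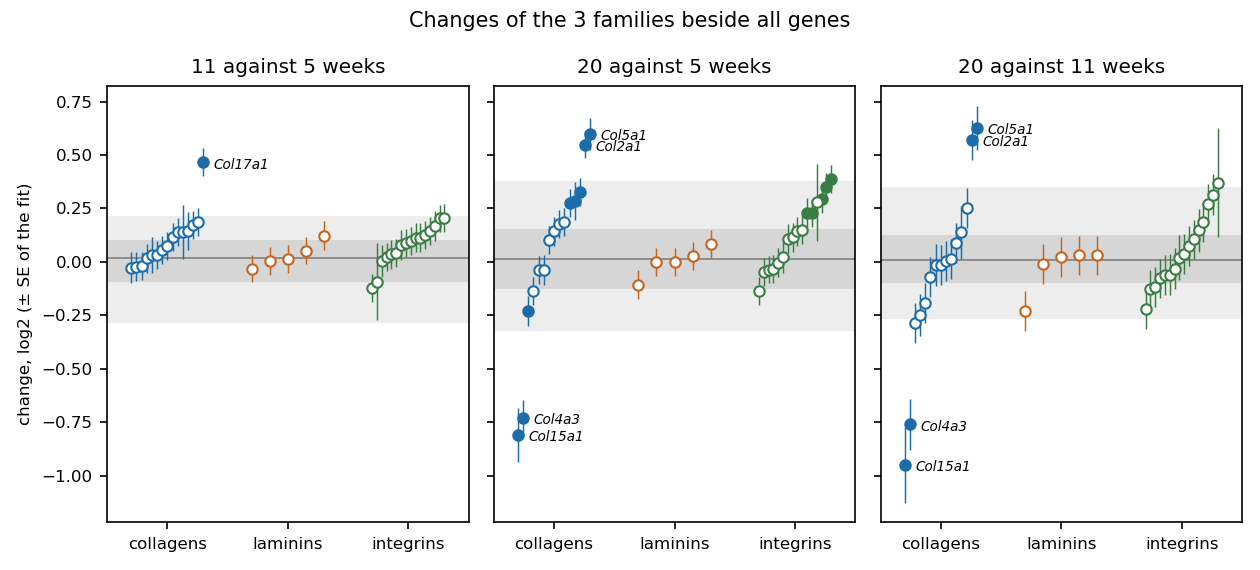
Change of each gene in log2 units (points, ± SE of the fit) in the 3 comparisons, sorted within collagens (15), laminins (5) and integrins (16); filled points passed the test. The line is the median of all 9653 genes, and the dark and light bands hold the middle 50% and 90% of them. As means over probes, laminins (17 probes) stay close to the line, while collagens (21 probes) reach both ends at 20 weeks. The laminin means thus average more probes per gene.

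Among the 7 fibrillar collagens measured, 2 rose at 20 weeks (28.6%, against 17.8% of all genes) and 0 fell (13.9% of all genes). Col5a1, a chain of collagen V, which helps to start collagen fibrils, stood at -0.09 and 0.04 at 11 weeks and at 0.69 and 0.51 at 20 weeks. Its 20-week change was 0.60 ± 0.13 (SD, n = 2), or 1.51-fold higher than at 5 weeks (adjusted p = 0.000497). The 20-week arrays were both high and did not overlap those of 11 weeks. Col2a1, the main fibrillar collagen of cartilage and of the vitreous body, stood at 0.14 and -0.18 at 11 weeks and at 0.70 and 0.40 at 20 weeks. This gave a 20-week change of 0.55 ± 0.22 (SD, n = 2), or 1.46-fold (adjusted p = 0.000403), again with no overlap between ages. For Col2a1 the Cy5 array was the higher of each pair by about the same amount, and the fitted dye effect was 0.15.

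The partner chains of Col5a1 did not pass. Col5a2 stood at 0.38 and -0.01 at 20 weeks (adjusted p = 0.0554), and Col5a3 at -0.08 and -0.20 (adjusted p = 0.134). Col3a1, a collagen of vessel walls, stood at 0.12 and 0.16 at 20 weeks (adjusted p = 0.127). Col1a2, a chain of collagen I, and Col11a2, a chain of cartilage collagen XI, had 20-week changes of -0.04 each, with 95% intervals from the fit of -0.19 to 0.12 and -0.19 to 0.11.

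All 5 basement membrane and network collagens passed at 20 weeks, 2 higher and 3 lower (17.8% and 13.9% of all genes). At 11 weeks 0 of them passed, and 0 had an unadjusted p under 0.05 (2603 of all 9653 genes). Col4a3, Col4a4 and Col4a5 encode the chains of one collagen IV trimer, best known from the kidney filter, and they did not move together. Col4a3 stood at -0.60 and 0.66 at 11 weeks and at -1.12 and -0.34 at 20 weeks. Its 20-week change was -0.73 ± 0.55 (SD, n = 2), or 1.66-fold lower (adjusted p = 0.000338). Both 20-week arrays were below 0, but the less extreme of them lay above the lower 11-week array, so the ages overlapped. The Col4a3 dye effect was large, with the Cy3 array higher in each pair. Col4a4 went the other way, at 0.05 and 0.10 at 11 weeks and 0.37 and 0.29 at 20 weeks. Its 20-week change was 0.33 ± 0.06 (SD, n = 2), with an adjusted p of 0.00589. Taken within an array, which removes any centring, Col4a3 minus Col4a4 was -1.49 and -0.63 at 20 weeks and -0.65 and 0.56 at 11 weeks. Col4a5 stood at -0.23 and 0.52 at 11 weeks and at 0.18 and 0.39 at 20 weeks, a 20-week change of 0.28 ± 0.15 (SD, n = 2) with an adjusted p of 0.0345. That of Col4a5 was 0.55 without the 20-week Cy3 array and 0.02 without the 20-week Cy5 array, and its adjusted p was 0.0711 with arrays centred on all probes.

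The Col4a3 and Col4a4 genes start head to head on chromosome 9, and their promoter windows are shown because the genes share this stretch while their 20-week changes were opposite in sign. In RefSeq on the GRCr8 assembly, the Col4a3 window (250 bases before to 50 after the start) is chr9:91323740-91324039 on the plus strand, and the Col4a4 window is chr9:91323528-91323827 on the minus strand. The start sites are 413 bases apart. Capitals mark the 88 bases that both windows cover, bases 1 to 88 of each, where one sequence is the reverse complement of the other.
Col4a3: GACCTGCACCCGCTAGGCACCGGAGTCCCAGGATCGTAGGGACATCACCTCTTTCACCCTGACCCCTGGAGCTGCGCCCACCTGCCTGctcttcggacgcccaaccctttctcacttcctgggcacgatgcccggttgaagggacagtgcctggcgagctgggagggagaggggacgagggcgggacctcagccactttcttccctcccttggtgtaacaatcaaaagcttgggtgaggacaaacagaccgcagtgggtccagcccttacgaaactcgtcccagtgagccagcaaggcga
Col4a4: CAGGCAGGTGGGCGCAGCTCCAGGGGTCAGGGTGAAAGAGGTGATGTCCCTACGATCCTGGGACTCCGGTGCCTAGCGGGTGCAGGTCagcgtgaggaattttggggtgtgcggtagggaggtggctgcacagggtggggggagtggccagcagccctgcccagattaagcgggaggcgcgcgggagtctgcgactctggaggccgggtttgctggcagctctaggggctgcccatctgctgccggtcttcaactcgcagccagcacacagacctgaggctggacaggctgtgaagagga
The windows had a GC content of 62.0% and 65.3%. The GC box GGGCGG, searched on both strands, was in the Col4a3 window and not in that of Col4a4. It was in 33.1% of 33469 promoters of the same length and in 14 of the 28 promoters of these genes that the table holds. The TATA box TATAAA, searched in the same way, was in neither window, in 14.2% of all promoters and in 3 of the 28. These matches describe letters and are not evidence of binding.

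Col15a1 and Col18a1 encode the related basement membrane collagens XV and XVIII, the second of which is the source of endostatin. Col15a1 stood at 0.00 and 0.28 at 11 weeks and at -1.43 and -0.19 at 20 weeks, with no overlap between ages. The 20-week change of Col15a1 was -0.81 ± 0.87 (SD, n = 2), or 1.75-fold lower (adjusted p = 0.00168), but it came mostly from 1 spot. One of its 2 probes read -2.71 and -0.01 at 20 weeks, and the other read -0.14 and -0.38. The Col15a1 change was -1.28 without the 20-week Cy3 array and -0.33 without the 20-week Cy5 array, and -0.26 from the second probe alone. With the robust form of the limma moderation its adjusted p was 0.0920. Col18a1 stood at -0.08 and 0.11 at 11 weeks and at -0.21 and -0.25 at 20 weeks. The mean at 20 weeks was -0.23 ± 0.02 (SD, n = 2), with an adjusted p of 0.0318. The Col18a1 probes disagreed in sign, at 0.11 and -0.57, and its change was -0.12 without the 20-week Cy3 array. In the ratios as deposited, without centring, it was 0.05.

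Beyond fibrils and basement membranes, 2 transmembrane collagens and 1 fibril-associated collagen were measured. Col13a1, found at cell junctions such as the neuromuscular synapse, stood at 0.14 and 0.24 at 11 weeks and at 0.28 on both 20-week arrays. It rose at 20 weeks by 0.28 (adjusted p = 0.0123) and had the narrowest spread of the 36 genes at that age. Col17a1, which had risen at 11 weeks, stood at 0.25 and 0.11 at 20 weeks, with both arrays below both 11-week arrays and an adjusted p of 0.0605. Col14a1, which binds the surface of collagen fibrils, stood at 0.09 and 0.11 at 20 weeks (adjusted p = 0.251).

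**Figure D2:**
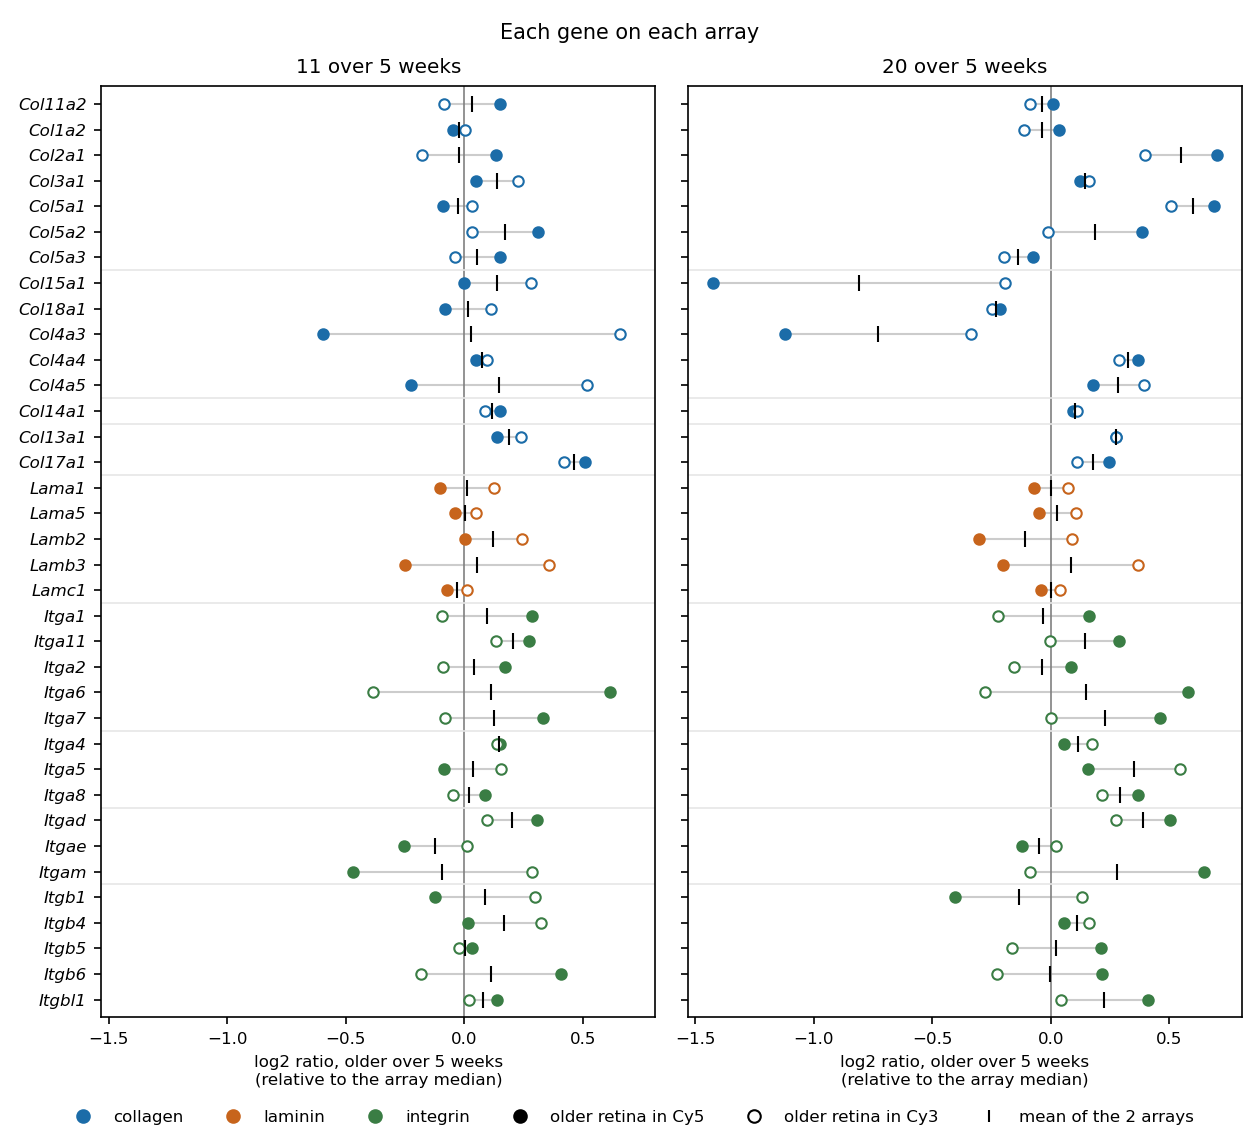
Log2 ratio of older over 5-week retina for each of the 36 genes, relative to the array median, at 11 weeks (left) and 20 weeks (right); filled points carried the older retina in Cy5, open points in Cy3, and the tick is the mean of the 2 arrays. Points of a gene far apart, as for Itga6 and Lamb3, differ between the dye orientations at both ages.

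None of the 5 laminin chains passed by limma in any comparison, and 0, 0 and 1 of them had an unadjusted p under 0.05 at 11 against 5, 20 against 5 and 20 against 11 weeks. Over all 9653 genes these counts were 2603, 4237 and 1947. The 20-week changes of the laminins ran from -0.11 to 0.08 and their 11-week changes from -0.03 to 0.12. Lama1, a chain of the laminin of the inner limiting membrane, stood at -0.07 and 0.07 at 20 weeks, a change of 0.00 with a 95% interval from the fit of -0.15 to 0.15. Lamc1, the gamma chain that most laminin trimers share, stood at -0.04 and 0.04, also a change of 0.00 with an interval of -0.14 to 0.15. Lama5, an alpha chain of many adult basement membranes, stood at -0.05 and 0.11, with an interval of -0.12 to 0.17. These 3 intervals hold changes of up to about 0.17 in size, for the mean of the probes only. Single probes at 20 weeks ran from -0.135 to 0.18 for Lama1, from -0.136 to 0.19 for Lama5 and from -0.23 to 0.21 for Lamc1. The lowest and the highest Lamc1 probe each passed alone in the limma fit on single probes (adjusted p = 0.0313 and 0.0447). Lamb2, a beta chain found at the photoreceptor synapse, stood at 0.00 and 0.24 at 11 weeks and at -0.30 and 0.09 at 20 weeks (adjusted p = 0.246). It was the laminin with an unadjusted p under 0.05 between 20 and 11 weeks, at a difference of -0.23 (adjusted p = 0.212). Lamb3, a chain of epithelial laminin, stood at -0.25 and 0.36 at 11 weeks and at -0.20 and 0.37 at 20 weeks, so that its Cy3 arrays were high and its Cy5 arrays low at both ages. Of its 3 probes, 1 passed alone at 20 weeks, at 0.31 (adjusted p = 0.0111), while another was at -0.10.

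Of the 5 integrin alpha chains that bind collagen or laminin, 1 rose at 20 weeks (20%, near the 17.8% of all genes) and 0 fell (13.9% of all genes). Itga7, a laminin receptor chain of muscle and vessel walls, stood at 0.33 and -0.08 at 11 weeks and at 0.46 and 0.00 at 20 weeks. At 20 weeks the change was 0.23 ± 0.32 (SD, n = 2), smaller than the spread between the arrays, and it passed (adjusted p = 0.0244) through the dye effect of 0.22 in the model. Itga6, another laminin receptor chain, read 0.61 and -0.39 at 11 weeks and 0.58 and -0.28 at 20 weeks, and did not pass (20-week change 0.15, adjusted p = 0.111). Itga1 and Itga2, collagen receptor chains, had 20-week changes of -0.03 and -0.04, with intervals of -0.18 to 0.11 for each. The near-zero value of Itga2 averages probes that each passed alone in opposite directions, at -0.34 and 0.27. Itga11, a collagen receptor of fibroblasts, stood at 0.29 and 0.00 at 20 weeks (adjusted p = 0.128).

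Of the 3 alpha chains of fibronectin-type receptors, 2 rose at 20 weeks (17.8% of all genes) and 0 fell (13.9% of all genes). Itga8, whose ligand in the kidney is nephronectin, stood at 0.09 and -0.05 at 11 weeks and at 0.37 and 0.22 at 20 weeks. Its 20-week change of 0.29 ± 0.11 (SD, n = 2) passed with an adjusted p of 0.00899, and the ages did not overlap. Itga5, the main fibronectin receptor chain, stood at -0.09 and 0.16 at 11 weeks and at 0.16 and 0.54 at 20 weeks. Its change of 0.35 ± 0.28 (SD, n = 2) passed (adjusted p = 0.00445), and its 4 probes disagreed, with 1 at 1.23 and the others between -0.10 and 0.29. The probes at 1.23 and at 0.29 each passed alone (adjusted p = 3.18e-05 and 0.0167). Without the probe at 1.23 the Itga5 change was 0.06, and with the median in place of the mean of its probes its adjusted p was 0.0886. Itga4, which binds fibronectin and a vessel adhesion molecule, stood at 0.06 and 0.17 at 20 weeks (adjusted p = 0.213).

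Of the 3 leukocyte integrin chains, 1 rose at 20 weeks (17.8% of all genes) and 0 fell (13.9% of all genes). Itgad, an alpha chain of macrophages known as CD11d, stood at 0.31 and 0.10 at 11 weeks and at 0.50 and 0.27 at 20 weeks. Its 20-week change was 0.39 ± 0.16 (SD, n = 2), or 1.31-fold higher (adjusted p = 0.00239), the highest of the integrins measured. Itgam, the alpha chain CD11b of microglia and myeloid cells, stood at -0.47 and 0.29 at 11 weeks and at 0.65 and -0.09 at 20 weeks, with a 20-week interval of -0.12 to 0.68. The dye pattern of Itgam turned over between the ages, and its change could not be placed above or below 0. Itgae, a chain of T cells in epithelia, stood at -0.12 and 0.02 at 20 weeks (adjusted p = 0.616).

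Of the 5 remaining integrin genes, 1 rose at 20 weeks (20%, near the 17.8% of all genes) and 0 fell (13.9% of all genes). Itgbl1 stood at 0.14 and 0.02 at 11 weeks and at 0.41 and 0.04 at 20 weeks, a 20-week change of 0.23 ± 0.26 (SD, n = 2), smaller than the spread between the arrays, with an adjusted p of 0.0354. That change was 0.35 without the 20-week Cy3 array and 0.10 without the 20-week Cy5 array, and its adjusted p was 0.0613 with arrays centred on all probes. Itgb1, the beta chain shared by most matrix receptors, stood at -0.12 and 0.30 at 11 weeks and at -0.40 and 0.13 at 20 weeks (adjusted p = 0.142). Itgb5, which joins the alpha v chain in the receptor by which pigment epithelium binds shed outer segments, stood at 0.21 and -0.17 at 20 weeks, with an interval of -0.14 to 0.19. Itgb4, the hemidesmosome partner of Itga6, and Itgb6, an epithelial chain, had 20-week changes of 0.11 and 0.00 (adjusted p = 0.249 and 0.968).

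The agreement between probes of one gene bears on each of these values. Of the 36 genes, 21 had 1 probe and 15 had several, up to 5. At 20 weeks, 6 of these 15 genes had all probes on the same side of 0, and the median range between the lowest and highest probe was 0.32. Fitted as single probes, 22 of the 62 passed at 20 weeks, 35.5%, near the 30.9% of all named probes. The counts were 1 of 62 at 11 weeks (8.82% of all named probes) and 5 between 20 and 11 weeks (4.53%). Counted as genes with any passing probe, there were 1, 17 and 5 of the 36 at 11 against 5, 20 against 5 and 20 against 11 weeks, against 11.1%, 37% and 5.78% of all genes. Both Col5a1 probes, at 0.39 and 0.81, and both Col15a1 probes, at -0.26 and -1.36, passed alone in the direction of their gene. Of the 5 Lamc1 probes, 1 passed at -0.23 and 1 at 0.21.

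**Figure D3:**
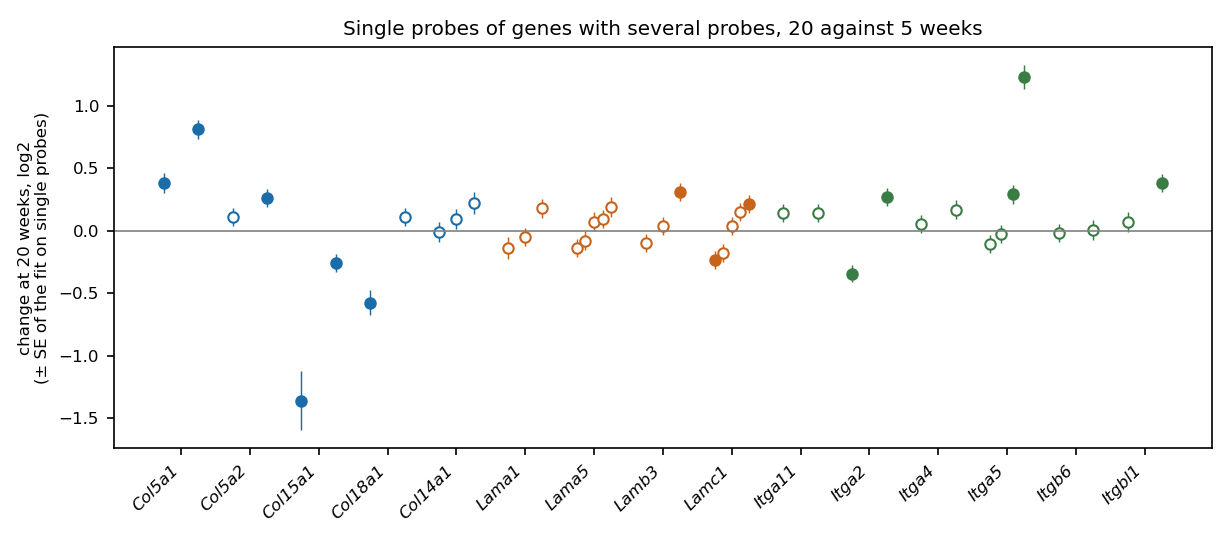
Change at 20 against 5 weeks in log2 units (± SE of the fit on single probes) for each probe of the 15 genes with several probes; filled points passed the test on single probes. One Itga5 probe at 1.23 and 1 Col15a1 probe at -1.36 stand apart from the other probes of their genes.

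Between 11 and 20 weeks, 2 of the 36 genes were higher at 20 weeks (3.55% of all genes) and 2 were lower (1.18% of all genes, 4.73% in both directions). No array holds both ages, and the comparison runs through the 5-week retina on each array. Whether the 11-week and 20-week pairs used the same 5-week pool is not stated in the labels. A difference between 5-week pools, or between the slides of the 2 ages, could not be told apart from a difference between the ages. The change of Col5a1 was greater at 20 than at 11 weeks by 0.63 (SE 0.10, adjusted p = 0.00765), and that of Col2a1 by 0.57 (SE 0.09, adjusted p = 0.00629). For Col5a1 this came mostly from 1 probe. Fitted as single probes, the difference was 1.05 for one and 0.21 for the other (adjusted p = 0.000657 and 0.345). The change of Col4a3 was lower at 20 weeks, at a difference of -0.76 (SE 0.12, adjusted p = 0.00514). The difference of Col15a1 was -0.95 (SE 0.18, adjusted p = 0.0145), and every array moved it by over 1.5 times. It was -0.47 without the 20-week Cy5 or the 11-week Cy5 array and -1.42 without either Cy3 array. Its adjusted p was 0.0584 with arrays centred on all probes and 0.266 with the robust moderation. Both 20-week arrays lay above both 11-week arrays for 5 of the 36 genes (13.6% of all genes), namely Col2a1, Col5a1, Col4a4, Col13a1 and Itga8. They lay below for 4 (11.1% of all genes), namely Col15a1, Col18a1, Col17a1 and Col5a3. The median difference was 0.01, as for all genes.

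Other genes that build, cut or bind the matrix are given as counts beside the 17.8% of all genes that rose and the 13.9% that fell at 20 weeks. Of 16 measured enzymes and chaperones of collagen making, 1 rose (6.25%) and 3 fell (18.8%), with a median of -0.03. P4hb, the shared subunit of prolyl hydroxylase, stood at -0.45 and -0.47 at 11 weeks and at -0.27 and -0.49 at 20 weeks (adjusted p = 0.00633 and 0.00369). Ppib, a folding enzyme of procollagen, had changes of -0.25 and -0.33 at the 2 ages (adjusted p = 0.0496 and 0.00647). Of 11 partners of basement membranes, 3 rose and 3 fell at 20 weeks (27.3% each), with a median of -0.10. Fn1, fibronectin and thus a ligand of the Itga5 receptor, stood at 0.04 and 0.56 at 11 weeks and at 0.47 and 0.61 at 20 weeks (adjusted p = 0.0413 and 0.00111). Sparc, a collagen-binding matrix protein, stood at -0.04 and -0.49 at 11 weeks and at -0.56 and -0.94 at 20 weeks (adjusted p = 0.0354 and 8.59e-05). Fbln1, fibulin of basement membranes and elastic fibres, was lower at 20 than at 11 weeks by a difference of -0.70, and Tinagl1, another basement membrane protein, was higher by 0.51 (adjusted p = 0.00281 and 0.0128).

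Of 17 matrix proteases and inhibitors, 6 rose (35.3%) and 2 fell (11.8%) at 20 weeks, with a median of 0.09. Mmp7, the protease matrilysin, stood at 0.28 and 0.51 at 11 weeks and at 0.53 and 0.97 at 20 weeks (adjusted p = 0.0110 and 0.000111). Mmp14, a membrane-bound collagenase, stood at 0.19 and -0.29 at 11 weeks and at 0.71 and 0.28 at 20 weeks (20-week adjusted p = 0.000716). Of 20 genes of the adhesion complex inside and beside integrins, 0 rose and 8 fell (40%) at 20 weeks, with a median of -0.09. Cd9, a tetraspanin bound to integrins, stood at -0.43 and -0.29 at 11 weeks and at -0.56 and -0.55 at 20 weeks (adjusted p = 0.0132 and 0.000434). Parva, which links integrins to actin, stood at -0.77 and -0.19 at 20 weeks (adjusted p = 0.00277). At 11 weeks these 4 lists had 0 higher and 2 lower, 2 and 1, 2 and 0, and 0 and 2, in the order given, where 2.61% of all genes were higher and 6.34% lower.

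**Figure D4:**
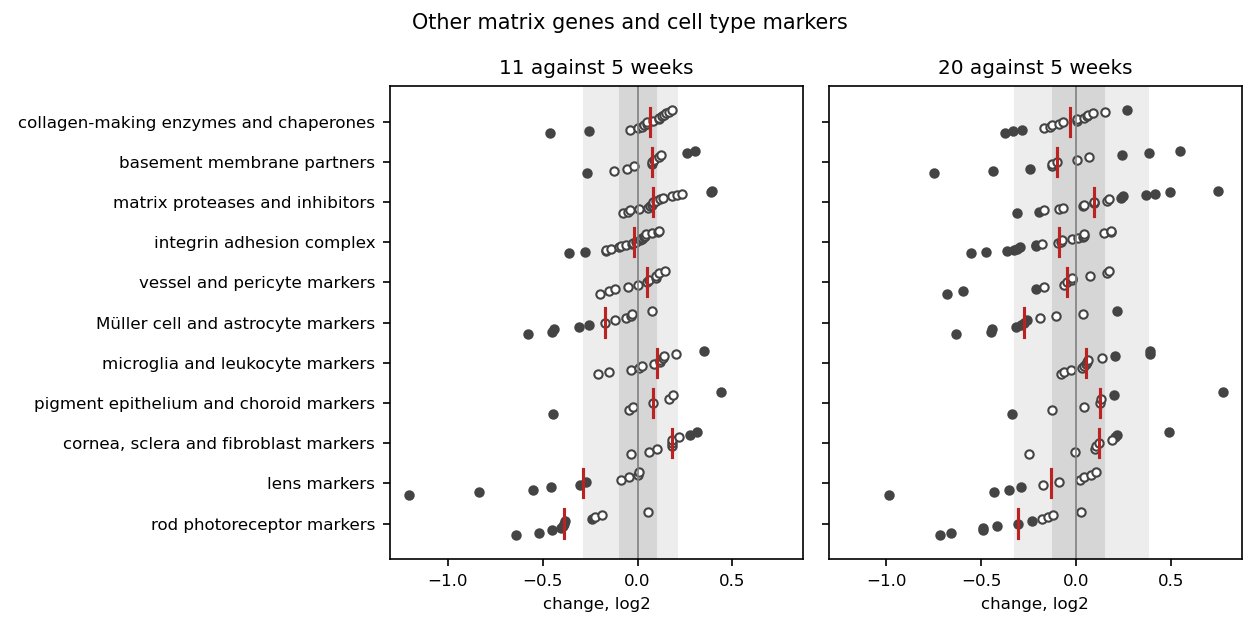
Change in log2 units of each measured gene in 4 lists of other matrix genes and 7 lists of cell type markers at 11 weeks (left) and 20 weeks (right); filled points passed the test and the red tick is the list median. The dark and light bands hold the middle 50% and 90% of all 9653 genes. Rod and lens markers lie mostly to the left at both ages.

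Markers of several cell types also changed, and their 20-week counts stand beside the 17.8% of all genes that rose and the 13.9% that fell. Of 11 vessel and pericyte markers, 0 rose and 3 fell (27.3%) at 20 weeks, with a median of -0.05. Among the basement membrane collagens Col4a3, Col15a1 and Col18a1 fell at that age, while Col4a4 and Col4a5 rose. Rgs5 and Pdgfrb, both of pericytes, had 20-week changes of -0.68 and -0.60 (adjusted p = 0.000211 and 0.000267). The arrays read -0.97 and -0.39 for Rgs5, and -1.11 and -0.09 for Pdgfrb, mostly from the Cy5 array. Of the 11 markers, 3 were above 0 (Kdr, Anpep and Vwf, at 0.17, 0.16 and 0.07) and 8 below. Of 9 markers of cornea, sclera and fibroblasts, 3 rose (33.3%) and 0 fell, with a median of 0.12, where 2 of the 7 fibrillar collagens rose. The 3 that rose, Krt5, Tp63 and Aldh3a1, are markers of the corneal epithelium. Krt14, also an epithelial marker of this list, did not pass, at 0.10 (adjusted p = 0.263). The stromal and fibroblast markers Lum, Dcn, Pdgfra, Fap and Thbs2 did not pass, at 0.19, 0.00, 0.10, 0.12 and -0.25. Tp63 stood at 0.47 and 0.50 at 20 weeks (adjusted p = 0.000841). Of 12 microglia and leukocyte markers, 3 rose (25%, near the share of all genes) and 0 fell, with a median of 0.05, at the age when Itgad rose. The 3 that rose were Ccr7 at 0.29 and 0.49, Csf1r at 0.19 and 0.22, and Cd4 at -0.06 and 0.83. Cd4 was thus above 0 on the Cy3 array only, and the other 9 markers did not pass. Of 7 markers of pigment epithelium and choroid, 2 rose and 1 fell, and Tyr had a change of 0.77 and Tyrp1 of -0.34. Among 11 Müller cell and astrocyte markers 1 rose and 7 fell, with a median of -0.27. Of 10 lens markers 0 rose and 4 fell, and of 11 rod markers 0 rose and 7 fell, with medians of -0.13 and -0.31. At 11 weeks, when Col17a1 rose, 2 of the 9 markers of cornea, sclera and fibroblasts rose (Krt5 at 0.30 and 0.34, and Dcn at 0.36 and 0.19) and 0 fell, against 2.61% and 6.34% of all genes. The part of these markers in the results above was not tested.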

How the data were processed

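Gene expression in pooled whole retinas was measured on 4 two-colour arrays, grouped by the older age per the labels. Per the labels' protocols, column-extracted total RNA was amplified with Cy5- or Cy3-labelled nucleotide. The authors deposited log2 channel ratios, as judged from a ceiling at 16.61, log2 of 100000. Normalization: not given in the sources used here, likewise the centring and direction of the ratios. Array medians over all probes were -0.05 and -0.14 on the 11-week Cy5 and Cy3 arrays, and 0.55 and -0.03 at 20 weeks.

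Platform annotation named 12750 of 22575 probes with 1 gene, 5 with several and 9820 with none. The 12750 were kept. GRCr8 gene identifiers matched 12720 of them and changed 0 symbols. Values at the ceiling (251 unnamed probes) were set to missing, and 0 member values were affected. Ratios were turned to older over younger, each array was centred on its named probes, and probes of a gene were averaged. limma 3.58.1 (lmFit, eBayes, R 4.3.3) fitted a gene-wise dye effect and both age changes over all 4 arrays, with 1 residual degree of freedom and a prior of 8.83. Tests were two-sided with Benjamini-Hochberg adjustment over 9653 genes at 0.05, and p-values cover only the array-to-array spread, possibly technical. Tested on simulated data, the fit recovered most changed genes but called more unchanged genes than its threshold allows. The simulated dye effect of a gene was equal on all 4 arrays and its change the same at both ages. Recovery under dye effects that differ between arrays was therefore not tested. Alternatives were no dye effect, other centring, single or median probes, ceiling values kept, robust moderation and leaving out each array. Named were genes that passed, the 4 highest and 4 lowest per comparison that moved alike on both arrays, a basement membrane set, genes whose probes differ by over 1, and up to 2 passing genes of each other list and comparison. The other genes of the 36 were described for completeness. Members, lists and the dye effect in the model were chosen with earlier results of these data known.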

Additional observations from a re-analysis of the deposited data

Results flagged for a closer look

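The change differed between 11 and 20 weeks, by a limma test of the difference itself, for 4 genes. The 20-week change minus the 11-week change was 0.63 for Col5a1, 0.57 for Col2a1, -0.76 for Col4a3 and -0.95 for Col15a1, with adjusted p of 0.00765, 0.00629, 0.00514 and 0.0145. The 20-week and 11-week arrays did not overlap for Col5a1, Col2a1 and Col15a1, and they overlapped for Col4a3. Of the 2 Col5a1 probes, 1 passed alone for this difference, at 1.05, and the other was at 0.21. Leaving out an array, with the dye effect kept, gave -1.42 to -0.47 for Col15a1 (each of the 4 arrays moved it by over 1.5 times), -0.99 to -0.53 for Col4a3, 0.47 to 0.78 for Col5a1 and 0.57 for Col2a1 throughout. Without the dye effect 0 of these 4 differences passed (adjusted p of 1). In that model 2 of the 36 genes, Col5a1 and Col2a1, had an unadjusted p under 0.05, against 270 of all 9653.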

How the results depend on the processing

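The genes passed numbered 1 at 11 against 5 weeks, 13 at 20 against 5 weeks and 4 at 20 against 11 weeks, and all of these passes needed both the dye effect and centred arrays. By limma without the dye effect 0, 0 and 0 passed (unadjusted p under 0.05 for 1, 6 and 2). With ratios as deposited 0, 0 and 0 passed (0, 10 and 2), also without the dye effect, an alternative chosen after seeing the data (0, 7 and 2). Leaving out each array, without the dye effect, 0 to 0 passed in each comparison (unadjusted p under 0.05 for 0 to 5). As deposited, the median of all genes was 0.06, 0.29 and 0.24, against 0.02, 0.01 and 0.01 when centred, and that of the 36 genes was 0.12, 0.38 and 0.24. Col18a1 at 20 weeks was then 0.046, with and without the dye effect, since centring lowered the 20-week mean. Lamc1 at 20 weeks, 0.00 as a gene, was -0.23 for 1 of its probes (adjusted p = 0.0313), and the cause of the disagreement was not tested. Counts stayed within 1.5 times under centring on all probes (1, 11 and 3), single probes (1, 17 and 5), the median of probes (1, 12 and 4), ceiling values kept (1, 13 and 4) and robust moderation (1, 12 and 3). Over all genes 864, 3057 and 457 passed. This was 451, 2642 and 274 with centring on all probes, 0, 133 and 1 as deposited, 0, 95 and 1 as deposited without the dye effect, and 0 without the dye effect. Leaving out an array without the dye effect gave 0 to 5 of all genes. At 20 weeks 56.1% of passes were higher when centred and 99.2% as deposited. No paired analysis was possible because the labels match no array of one age to one of the other except by dye orientation. The main fit already used that orientation. Spot signals over background were not used here, so the dimmest probes could not be set apart.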

Other observations

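The fitted dye effect, the mean of a gene's turned Cy5 value and the negative of its turned Cy3 value, was larger in size than the age change for 23 of the 36 genes at 11 weeks and 13 at 20 weeks, against 56.9% and 46.7% of all genes. Itga6 had a dye effect of 0.50 in the 11-week pair and 0.43 in the 20-week pair, and Lamb3 of -0.30 and -0.28. For Itgam the same quantity was -0.38 at 11 weeks and 0.37 at 20 weeks, and for Col15a1 -0.14 and -0.62. The dye effect of Col4a3 was -0.63 and -0.39.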
